A study of Mus musculus with 100 samples.

Results

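Whole mouse embryos at embryonic day 8.5 (E8.5) are described here by RNA sequencing, 3 embryos labelled KI against 3 controls. The 6 libraries are those titled as E8.5 embryos among the 100 samples of the series, of which 37 RNA libraries have a deposited table. The series is about what the enzymatic function of MLL3 and MLL4 contributes to early development and stem cell differentiation. KI embryos carry the genotype Mll3flox/KI;Mll4flox/KI;Sox2-Cre, and controls carry Mll3flox/KI;Mll4flox/+;Sox2-Cre. Both groups therefore share Sox2-Cre and the floxed and KI alleles of Mll3, and they differ in the second allele of Mll4, KI or wild type. The controls are not wild type, and what KI stands for is not spelled out in the labels. Each title holds a number that 1 KI and 1 control embryo share. The 3 pairs are called 1, 2 and 3 here in ascending order of that number, and values of 3 embryos are given in this order. Libraries were made from poly(A)-selected RNA with NEBNext kits. Whole embryos at E9.5, 3 KI and 3 control libraries with the same 2 genotypes and with 2 title numbers, serve as the other stage. The labels do not say whether embryos came from separate litters, so p-values measure the spread between these samples.

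MLL3 and MLL4, encoded by Kmt2c and Kmt2d, are large histone H3 lysine 4 methyltransferases that act mainly at enhancers, the distal DNA elements that switch on cell type genes. At E8.5 the mouse embryo forms somites, closes its neural tube, loops its heart, breaks left-right symmetry and receives the first red blood cells from the yolk sac. Sox2-Cre recombines floxed alleles in the epiblast, the source of the embryo proper and of extraembryonic mesoderm such as the allantois and blood, while trophoblast and visceral endoderm keep the floxed alleles.

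The deposited tables of the 6 embryos sum to 28.0 to 37.5 M reads, of which 20.1 to 26.9 M fall on the 1 transcript kept per gene, so that 3 reads equal 0.115 to 0.15 CPM (reads of the gene per 1000000 reads, with libraries scaled by the TMM method). The sum of 18 visceral and yolk sac endoderm markers, which Sox2-Cre does not recombine, was 704, 151 and 289 CPM in KI and 878, 219 and 438 CPM in control embryos. Apob, the apolipoprotein of lipid-exporting cells, was at 125, 3.68 and 32.3 CPM in KI and 159.9, 8.08 and 41.9 CPM in control embryos, so both embryos of pair 1 were high and both of pair 2 low. Xist, the RNA of X inactivation, was at 813, 0.472 and 870.5 CPM in KI and 1165, 0.770 and 1079 CPM in control embryos. The Y-linked Ddx3y was at 0.180, 29.6 and 0 CPM in KI and 0.100, 30.9 and 0 CPM in control embryos. Both embryos of pair 2 thus had Y-linked RNA and almost no Xist, the reverse of the other 4, so both groups hold 1 such embryo, and sex cannot be told apart from the pair. Markers of leukocytes and macrophages summed to 5.77 to 7.14 CPM in KI and 6.75 to 9.47 CPM in control embryos. The first principal component, the main axis of variation over the 12 embryo libraries (38.8% of the variance), separated E8.5 from E9.5. At E8.5, KI embryos lay at -37.7, -30.2 and -28.3 on it and controls at -28.7, -19.1 and -16.6. E9.5 controls lay at 36.1 to 42.8 and E9.5 KI embryos at 7.4 to 20.7. The part of developmental stage within E8.5 in the values below was not tested.

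The targeted genes come first. Kmt2c was at 33.9, 39.1 and 38.3 CPM in KI and 39.7, 36.8 and 36.5 CPM in control embryos. Kmt2d was at 178, 203 and 189.6 CPM in KI and 220.1, 197 and 188 CPM in control embryos. The groups overlapped for both genes, with log2 fold changes (KI minus control, from edgeR's quasi-likelihood test on counts) of -0.02 (SE, standard error, 0.10, Benjamini-Hochberg adjusted p = 0.94) and -0.09 (SE 0.07, adjusted p = 0.548). A deleted exon or a point change cannot be seen in 1 value per transcript, so these levels do not check the labels. At E9.5 the log2 fold change was 0.34 for Kmt2c (SE 0.10, adjusted p = 0.0162, called higher) and 0.10 for Kmt2d (adjusted p = 0.266). At E8.5, 0 of 10 genes of the MLL3 and MLL4 complexes were called, with log2 fold changes between -0.14 and 0.01, and among 8 other H3K4 methyltransferases and demethylases 0 were called. At an unadjusted p under 0.05 these lists held 0 and 1 genes, and DESeq2 called 0 in both. The fit of the 6 E8.5 libraries with the pair as a block called 1 of the 8 higher.

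Over the whole table, 843 of 15436 genes (5.46%) were called, meaning an adjusted p under 0.05 in edgeR. Of these, 560 (3.63%) were higher and 283 (1.83%) lower in KI embryos, and the median log2 fold change of all genes was -0.01. With the pair as a block in the fit, 1304 genes (8.45%) were called, and 549 of the 560 and 278 of the 283 were among them. Leaving out 1 E8.5 library gave 363 to 755 calls, with the lowest counts without control 3 (363) and without KI 3 (377), and 546 without KI 1 and 488 without control 1. At least 2-fold changes were called for 214 genes (1.39%), 124 higher (0.803%) and 90 lower (0.583%). All 3 KI embryos lay on one side of all 3 controls for 3818 genes (24.7%), above them for 1858 (12.0%) and below for 1960 (12.7%). Such separation held for 553 of the 560 and 277 of the 283 called genes, so it adds little to a call. Each call was tested under 14 alternatives (other tests, scalings, filters, a block on the pair, and 1 E8.5 library left out). Fits without an E9.5 library were not among them. A gene said to have risen or fallen kept its call under every alternative that gave a value, unless a paragraph that names it says otherwise. A stricter filter dropped a few low genes.

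**Figure D1:**
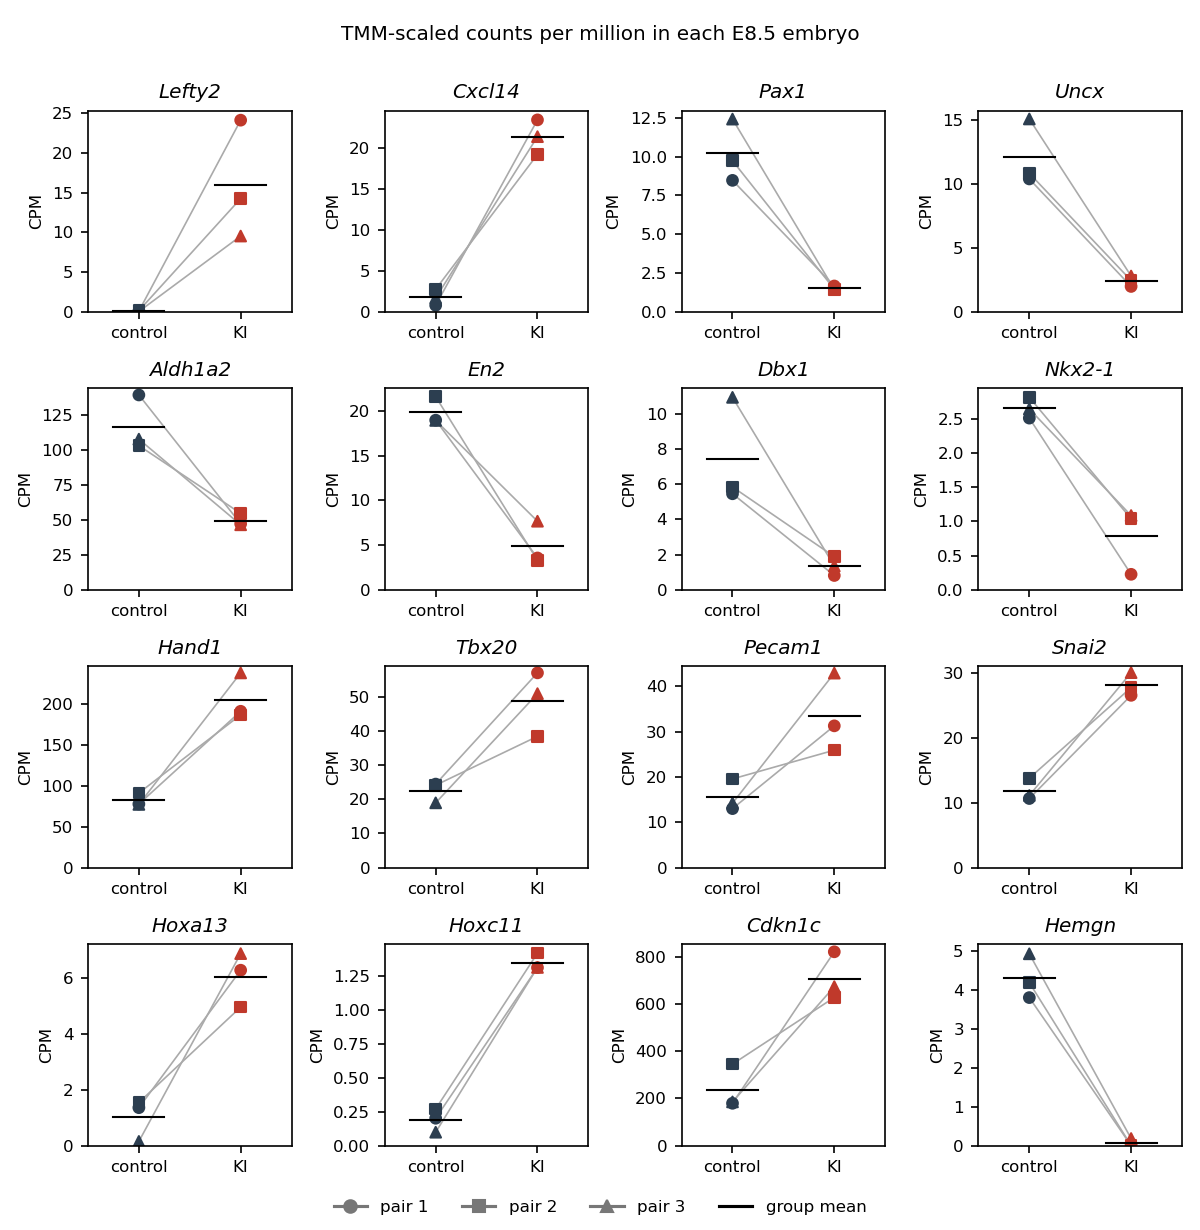
CPM of 16 genes in each E8.5 embryo, with a line joining the KI and the control embryo of 1 pair and a black bar at the group mean. In each panel the 3 KI embryos lie on one side of the 3 controls, and the y axes start at 0 and differ between panels.

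Lefty2 had the largest fold change of the genes named here. This secreted Nodal antagonist, expressed transiently in left lateral plate mesoderm, was at 24.1, 14.2 and 9.53 CPM in KI and 0.100, 0.154 and 0.0489 CPM in control embryos. The KI embryos held 1047 reads of it and the controls 7, a ratio of 151 with an exact 95% interval of 73.2 to 378 that covers counting error only. Even numbers made up 65.6 to 66.7% of read counts from 1 to 20, so 2 reads can belong to 1 fragment and intervals from reads may be too narrow. Cxcl14, a chemokine, was at 23.5, 19.2 and 21.4 CPM in KI and 0.802, 2.77 and 1.71 CPM in control embryos (log2 fold change 3.57, SE 0.30, adjusted p = 2.66e-06). Rgs5, a regulator of G protein signalling known from pericytes, was at 34.2, 26.8 and 31.8 CPM in KI and 5.91, 6.62 and 6.35 CPM in control embryos (2.29, SE 0.17, adjusted p = 3.81e-07). Pmepa1, a transmembrane inhibitor of TGF-beta signalling, was at 2.17, 2.12 and 2.17 CPM in KI and 0.301, 0.423 and 0.587 CPM in control embryos (2.29, SE 0.35, adjusted p = 0.000569). Popdc3, a popeye domain protein of heart and muscle, was at 2.39, 3.68 and 4.70 CPM in KI and 0.401, 0.924 and 0.880 CPM in control embryos (2.27, SE 0.41, adjusted p = 0.00232).

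Genes were ranked among those called, at least 2-fold changed, with a mean of at least 1 CPM in a group and groups that do not overlap. The others of the 15 with the largest rise by this rule were Klk1 (3.44), a kallikrein protease, the posterior homeobox genes Hoxc11 (2.76) and Hoxa13 (2.55), Amer3 (2.55), Gpr37 (2.48), Padi2 (2.44), which converts arginine to citrulline, the vesicular GABA transporter gene Slc32a1 (2.38), Adgra1 (2.29), Tmem114 (2.27) and the axon guidance receptor gene Robo3 (2.27), all as log2 fold changes. Several are low: the controls held 8 reads of Klk1 and 13 of Hoxc11 in all. Klk1 (KI 1, control 1, control 2 or KI 3), Amer3 and Tmem114 (any of the 6), Gpr37 and Padi2 (KI 1, control 1, KI 3 or control 3), Slc32a1 (control 3) and Adgra1 (control 1 or control 3) lost the call when the library in brackets was left out. Over the alternatives Klk1, Amer3, Tmem114, Gpr37, Padi2, Slc32a1 and Adgra1 reached adjusted p-values of at most 0.111, 0.129, 0.156, 0.187, 0.284, 0.0821 and 0.0692, in that order. Hoxa13, Gpr37 and Padi2 in a fit of the 6 E8.5 libraries with the block, Gpr37 and Padi2 with the block, Gpr37, Padi2 and Tmem114 with transcripts summed per gene and Padi2 in a fit of the 6 E8.5 libraries lost the call as well (highest adjusted p for Hoxa13 0.0664). Among log2 fold changes, that of Padi2 was 1.54 without KI 1.

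Among the 15 genes with the largest fall by the same rule, the first was Hemgn, an erythroid nuclear factor, with 4 reads in the KI embryos and 286 in the controls (a ratio of 70.6 in favour of controls, exact 95% interval 27.3 to 261, counting error only). Cacna1s, the calcium channel of skeletal muscle, was at 0, 0 and 0.271 CPM in KI and 1.60, 0.847 and 1.76 CPM in control embryos (log2 fold change -3.86, SE 1.01, adjusted p = 0.0325). Vit, which encodes the matrix protein vitrin, was at 0.406, 0.472 and 0.181 CPM in KI and 2.71, 2.81 and 3.57 CPM in control embryos (-3.09, SE 0.42, adjusted p = 0.000196). Lamc3, a laminin chain, had a log2 fold change of -2.55, and the protease gene Fap -2.49. Cdh19, a cadherin of neural crest derivatives, was at 0.0902, 0 and 0.271 CPM in KI and 1.50, 1.27 and 1.08 CPM in control embryos (-3.34, SE 0.73, adjusted p = 0.0101). Pax1 (-2.74), Uncx (-2.32) and Dbx1 (-2.45) are described with their tissues, and the others were Treml2 (-4.07), the potassium channel gene Kcnn4 (-3.65), BC024139 (-3.58), Lrrn3 (-2.99), Sema3b (-2.30), a semaphorin, and the keratin gene Krt20 (-2.29). Hemgn (any of the 6), Cacna1s (KI 1, control 1, KI 2 or control 3), Kcnn4 (KI 1, KI 2, KI 3 or control 3), Lrrn3 (KI 2 or KI 3), Dbx1 (KI 3) and Krt20 (KI 1, KI 2, control 2 or control 3) lost the call when the library in brackets was left out. Over the alternatives Hemgn, Cacna1s, Kcnn4, Lrrn3, Dbx1 and Krt20 reached adjusted p-values of at most 0.159, 0.116, 0.079, 0.0535, 0.0652 and 0.16, in that order. Hemgn without the filter on low counts, Cacna1s with DESeq2 and Cacna1s with transcripts summed per gene lost the call as well. Among log2 fold changes, that of Hemgn was -9.67 without KI 3 and that of Cacna1s was -8.05 without KI 3.

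The most abundant called genes had small fold changes. The 5 most abundant called higher were Mest (0.28), fibronectin, Fn1 (2008 ± 293 CPM in KI and 1162 ± 131 CPM in control embryos, mean ± SD of 3 each, with a log2 fold change of 0.79), Peg10 (0.46), Nisch (0.19) and Peg3 (0.49). The 5 most abundant called lower were the RNA-binding or translation factors Sfpq (-0.20), Pabpc4 (-0.22), Dhx9 (-0.24), Srsf6 (-0.21) and Eif5 (-0.24). Mest and Sfpq (KI 1, control 1, KI 3 or control 3), Nisch (any of the 6), Pabpc4 (KI 1, control 2, KI 3 or control 3), Dhx9 and Eif5 (control 1, KI 2, KI 3 or control 3) and Srsf6 (any but control 2) lost the call when the library in brackets was left out. Over the alternatives Mest, Sfpq, Nisch, Pabpc4, Dhx9, Eif5 and Srsf6 reached adjusted p-values of at most 0.132, 0.0758, 0.183, 0.107, 0.141, 0.151 and 0.165, in that order. Mest and Fn1 in a fit of the 6 E8.5 libraries with the block, Nisch and Srsf6 with DESeq2's size factors as scaling in edgeR, Nisch and Srsf6 with transcripts summed per gene and Srsf6 without the filter on low counts lost the call as well (highest adjusted p for Fn1 0.158).

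**Figure D2:**
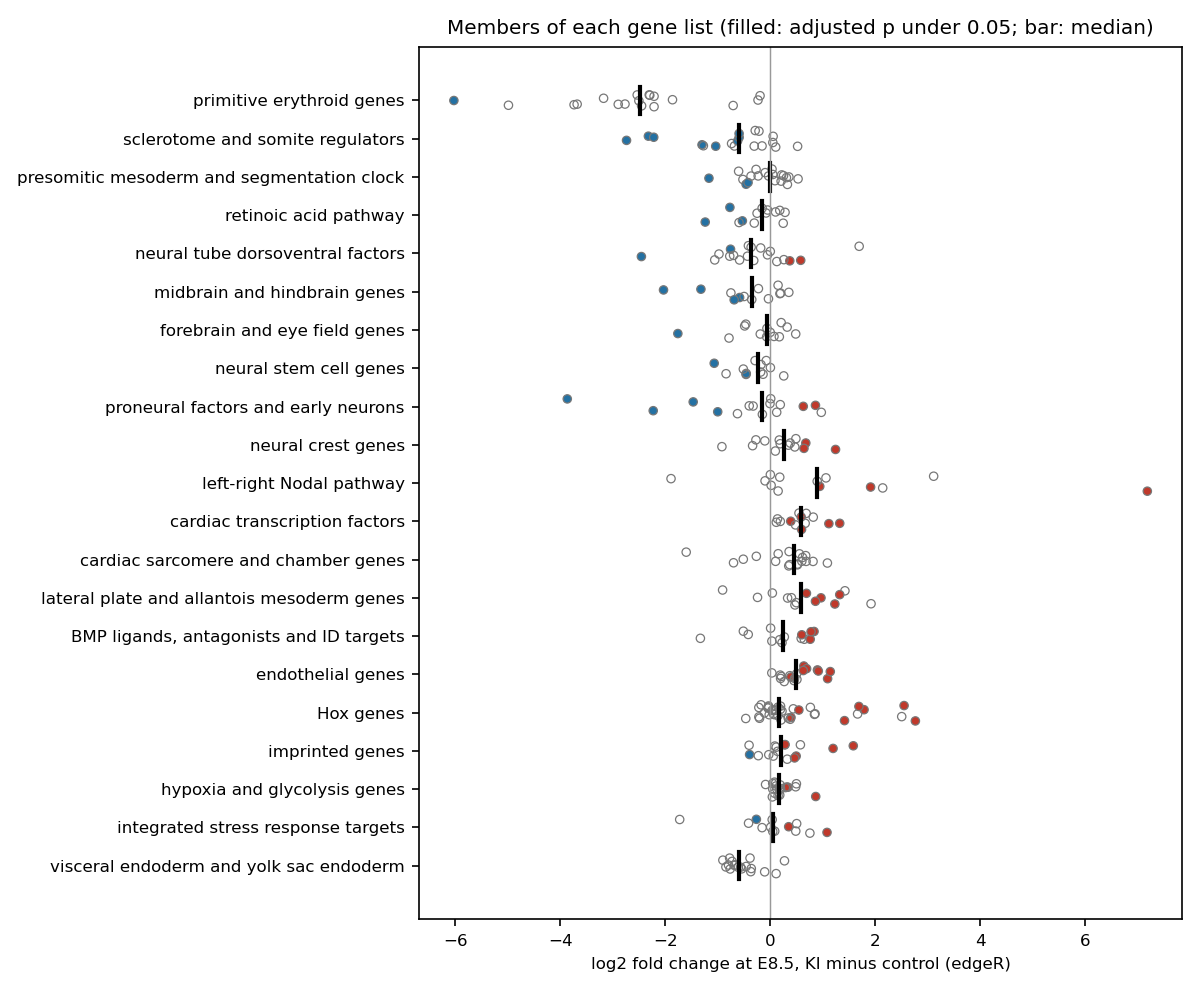
Log2 fold change at E8.5 (x axis, KI minus control) of each tested member of 21 gene lists (rows), filled where the adjusted p was under 0.05 and with a black bar at the list's median. All 18 erythroid genes lie left of 0, and all 13 cardiac transcription factors and all 18 endothelial genes lie right of it.

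Of 19 tested somite and sclerotome regulators, 8 fell and 0 rose, against 1.83% lower and 3.63% higher among all genes. Their median log2 fold change was -0.59 against -0.01 for all genes. The lists were chosen with earlier results of these data known, so these shares are a description and not a test of excess. The same shares of all genes apply to the calls of every list. Pax1, a paired box factor of the sclerotome, the somite part that forms vertebrae and ribs, was at 1.67, 1.46 and 1.45 CPM in KI and 8.47, 9.74 and 12.4 CPM in control embryos (log2 fold change -2.74, SE 0.23, adjusted p = 5.76e-07). Uncx, which marks the posterior part of each somite, was at 1.99, 2.45 and 2.80 CPM in KI and 10.4, 10.8 and 15.1 CPM in control embryos (-2.32, SE 0.23, adjusted p = 4.71e-06). In both genes the highest KI embryo was below the lowest control, which the ranking rule above required. In the somite list the calls became 5 lower without KI 1, control 1, KI 2, KI 3 or control 3.

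Tcf15 (paraxis), needed for somites to become epithelial, was at 13.9, 14.5 and 12.6 CPM in KI and 37.8, 26.3 and 37.1 CPM in control embryos (log2 fold change -1.30, SE 0.16, adjusted p = 0.000162). Meox1, a homeobox gene of somites, was at 33.6, 35.6 and 39.9 CPM in KI and 73.2, 63.4 and 87.8 CPM in control embryos (-1.04, SE 0.19, adjusted p = 0.0128). Foxc1 (-0.62) and Eya1 (-0.59) were also called lower. Foxc2 was not called (-0.31, adjusted p = 0.258). In bulk embryos, fewer cells of a type and less RNA per cell cannot be told apart. Meox1 (KI 1) and Foxc1 and Eya1 (any but control 2) lost the call when the library in brackets was left out. Over the alternatives Meox1, Foxc1 and Eya1 reached adjusted p-values of at most 0.0556, 0.162 and 0.189, in that order. Foxc1 with DESeq2's size factors as scaling in edgeR, Foxc1 without the filter on low counts, Eya1 with the block and Eya1 with transcripts summed per gene lost the call as well.

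The presomitic mesoderm, the unsegmented tissue that buds off somites under a Notch and Wnt clock, had a median of 0.00 over 20 genes, with 3 called lower and 0 higher. Wnt3a, the Wnt ligand of the tail bud, was at 11.6, 8.11 and 5.33 CPM in KI and 18.9, 17.9 and 19.5 CPM in control embryos (log2 fold change -1.17, SE 0.20, adjusted p = 0.00148). The Notch ligand gene Dll1 was at 44.0, 46.3 and 40.5 CPM in KI and 63.2, 59.1 and 53.1 CPM in control embryos (-0.42, SE 0.09, adjusted p = 0.0105). Lfng, which encodes a glycosyltransferase that modifies Notch, was at 29.9, 29.8 and 22.9 CPM in KI and 36.9, 40.2 and 36.4 CPM in control embryos (-0.46, SE 0.11, adjusted p = 0.0154). Each of the 3 genes was lower in every KI embryo than in every control. T (brachyury), the mesoderm factor of the primitive streak, was at 61.1, 67.1 and 49.6 CPM in KI and 70.9, 58.3 and 42.7 CPM in control embryos with overlapping groups (adjusted p = 0.96). Tbx6 (-0.27), Msgn1 (-0.52), Cdx4 (-0.60) and Cdx2 (0.31) were not called. In the presomitic list the calls became 1 higher and 3 lower with the block, 2 higher and 4 lower in a fit of the 6 E8.5 libraries with the block, 1 higher and 2 lower without control 1, 1 lower without KI 3. The presomitic list had a median of 0.20 without control 1, 0.12 without KI 3, -0.13 without control 3. Dll1 (control 1 or KI 3) and Lfng (KI 3) lost the call when the library in brackets was left out. Over the alternatives Dll1 and Lfng reached adjusted p-values of at most 0.0637 and 0.0896, in that order.

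Retinoic acid, made in somites and lateral mesoderm, patterns the trunk. Aldh1a2, the enzyme that makes it in the embryo, was at 47.2, 54.7 and 46.5 CPM in KI and 139, 103 and 108 CPM in control embryos (log2 fold change -1.24, SE 0.12, adjusted p = 9.2e-06), and every KI embryo lay below every control. Stra6, a receptor for retinol uptake, was at 19.5, 20.6 and 21.6 CPM in KI and 37.8, 32.4 and 34.9 CPM in control embryos (-0.77, SE 0.10, adjusted p = 0.000136). Crabp2, which carries retinoic acid to its receptors, was at 164, 177 and 143 CPM in KI and 207, 237 and 257 CPM in control embryos (-0.53, SE 0.10, adjusted p = 0.00336). These 3 were called lower among 13 tested genes and 0 were called higher, against 1.83% and 3.63% of all genes. The median of the list was -0.16. The degrading enzyme gene Cyp26a1 (-0.23, adjusted p = 0.589) and the receptor gene Rarb (-0.16, adjusted p = 0.585), a known direct target, were not called, and their groups overlapped. In the retinoic acid list the calls became 1 higher and 3 lower with DESeq2, without the filter on low counts, with the block or in a fit of the 6 E8.5 libraries, 2 higher and 3 lower in a fit of the 6 E8.5 libraries with the block. The retinoic acid list had a median of -0.25 without KI 1, -0.27 without control 2.

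Of 13 genes of the midbrain, hindbrain and their boundary, 4 fell and 0 rose, against 1.83% and 3.63% of all genes. En2, an engrailed homeobox gene of that boundary, was at 3.56, 3.30 and 7.68 CPM in KI and 19, 21.6 and 18.96 CPM in control embryos (log2 fold change -2.03, SE 0.23, adjusted p = 0.000322). Its paralog En1 was at 9.25, 12.3 and 11.5 CPM in KI and 33.3, 24.8 and 24.5 CPM in control embryos (-1.32, SE 0.14, adjusted p = 1.26e-05). Wnt1, the ligand that maintains both, was at 13.2, 14.3 and 11.1 CPM in KI and 19.5, 22.1 and 16.2 CPM in control embryos (-0.58, SE 0.14, adjusted p = 0.0153). Otx2, the homeobox gene of forebrain and midbrain, was at 13.0, 14.5 and 14.4 CPM in KI and 20.9, 22.8 and 23.9 CPM in control embryos (-0.69, SE 0.13, adjusted p = 0.00386). The groups did not overlap in any of the 4. Fgf8, the other organizer signal of that boundary, was not called (0.35, adjusted p = 0.154). Wnt1 (control 2 or KI 3) lost the call when the library in brackets was left out. Over the alternatives Wnt1 reached adjusted p-values of at most 0.0896.

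Of 13 forebrain and eye field genes, 1 was called: Nkx2-1, a homeobox gene of the ventral forebrain, thyroid and lung, was at 0.226, 1.04 and 1.08 CPM in KI and 2.51, 2.81 and 2.64 CPM in control embryos (log2 fold change -1.76, SE 0.35, adjusted p = 0.0053). Six3 was at 0.32 (adjusted p = 0.25). Among 19 neural tube factors of the dorsoventral axis, 2 fell and 2 rose. With the block 5 fell and 2 rose. Dbx1, which specifies interneurons at the middle of the neural tube, was at 0.812, 1.89 and 1.35 CPM in KI and 5.46, 5.85 and 10.9 CPM in control embryos (-2.45, SE 0.45, adjusted p = 0.011). The motor neuron progenitor gene Olig2 was at 4.83, 3.87 and 4.38 CPM in KI and 7.72, 5.39 and 9.09 CPM in control embryos (-0.76, SE 0.20, adjusted p = 0.031). The dorsal genes Msx1 (0.37, SE 0.07, adjusted p = 0.00552) and Msx2 (0.58, SE 0.09, adjusted p = 0.000373) rose. The floor plate and notochord signal Shh was at 21.1, 27.5 and 27.1 CPM in KI and 37.7, 25.4 and 16.6 CPM in control embryos, with overlapping groups (adjusted p = 0.926). Pax6 was at -0.18 (adjusted p = 0.378) and Nkx6-1 at 0.26 (adjusted p = 0.433). In the dorsoventral list the calls became 2 higher and 4 lower in a fit of the 6 E8.5 libraries with the block, 2 higher and 1 lower without control 1, 2 higher and 0 lower without KI 3, 1 higher and 1 lower without control 3. Dbx1 (KI 3), Olig2 (control 1, KI 2, KI 3 or control 3) and Msx1 (control 3) lost the call when the library in brackets was left out. Over the alternatives Dbx1, Olig2 and Msx1 reached adjusted p-values of at most 0.0652, 0.173 and 0.053, in that order. Olig2 in a fit of the 6 E8.5 libraries lost the call as well.

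Of 15 proneural and early neuron genes, 4 fell and 2 rose. Neurog1, the proneural factor of sensory ganglia, was at 0.361, 0.283 and 0.542 CPM in KI and 1.50, 0.577 and 3.67 CPM in control embryos (log2 fold change -2.23, SE 0.56, adjusted p = 0.0396), where control 3 stood highest. Nhlh1, of newly born neurons, had 2 reads in the KI embryos and 34 in the controls, a ratio of 16.8 in favour of controls with an exact 95% interval of 4.30 to 144 (counting error only, adjusted p = 0.0031). Elavl4 (-1.001) fell as well, and Isl1 (0.86, SE 0.12, adjusted p = 0.000322), of motor neurons and second heart field, and Dll4, a Notch ligand gene described with the endothelium, rose. The pan-neuronal Stmn2 was not called (0.12, adjusted p = 0.773). In the proneural list the calls became 1 higher and 4 lower with transcripts summed per gene, 1 higher and 1 lower in a fit of the 6 E8.5 libraries, 3 higher and 2 lower in a fit of the 6 E8.5 libraries with the block, 2 higher and 2 lower without KI 1 or KI 3, 1 higher and 3 lower without control 1 or KI 2, 1 higher and 2 lower without control 3. Neurog1 (any but control 2), Elavl4 (KI 1, control 2, KI 3 or control 3) and Dll4 (any but KI 1) lost the call when the library in brackets was left out. Over the alternatives Neurog1, Elavl4 and Dll4 reached adjusted p-values of at most 0.139, 0.133 and 0.199, in that order. Neurog1 without the filter on low counts, Neurog1, Elavl4 and Dll4 in a fit of the 6 E8.5 libraries, Elavl4 in a fit of the 6 E8.5 libraries with the block and Dll4 with transcripts summed per gene lost the call as well. Among log2 fold changes, that of Neurog1 was -1.34 without control 3 and that of Nhlh1 was -6.62 without KI 1.

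Of 12 neural stem cell genes, 2 were called lower. Nes (nestin), an intermediate filament of progenitors, was at 104, 112 and 108 CPM in KI and 126, 158 and 163 CPM in control embryos (log2 fold change -0.46, SE 0.12, adjusted p = 0.036). Pou3f2, a POU factor of neural progenitors, was at 10.5, 12.0 and 11.9 CPM in KI and 18.0, 30.6 and 23.3 CPM in control embryos (-1.07, SE 0.22, adjusted p = 0.0203). With the block 5 were called lower, among them Zic1 (-0.84, adjusted p = 0.0512 without and 0.00924 with the block, range over the alternatives 0.00143 to 0.16). The progenitor factors Sox2 (-0.18), Sox1 (-0.14) and Sox3 (-0.18) were not called under either fit. In the neural crest list, 3 of 14 rose and 0 fell: Snai2, which drives the epithelial to mesenchymal transition, was at 26.6, 27.8 and 30.1 CPM in KI and 10.7, 13.8 and 11.1 CPM in control embryos (1.24, SE 0.16, adjusted p = 0.000177). Ednrb, an endothelin receptor gene, had 0.68 and Hand2 0.64. Sox10, of migrating crest, was at -0.34 (adjusted p = 0.533). In the neural stem cell list the calls became 5 lower with DESeq2, in a fit of the 6 E8.5 libraries or in a fit of the 6 E8.5 libraries with the block, 1 lower without the filter on low counts or without control 2, 0 calls without KI 1, KI 2, KI 3 or control 3. In the neural crest list the calls became 4 higher and 1 lower with DESeq2 or with the block, 5 higher and 1 lower in a fit of the 6 E8.5 libraries with the block. Nes (any but control 1), Pou3f2 (KI 1, KI 2, KI 3 or control 3) and Ednrb (KI 3 or control 3) lost the call when the library in brackets was left out. Over the alternatives Nes, Pou3f2 and Ednrb reached adjusted p-values of at most 0.12, 0.0811 and 0.0595, in that order. Nes without the filter on low counts lost the call as well.

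Left-right asymmetry depends on Nodal, which spreads in the left lateral plate, and switches on its own antagonists Lefty1 and Lefty2. Of 13 tested genes of this pathway, 3 were called higher and 0 lower, with a median of 0.89. Besides Lefty2 (log2 fold change 7.18, SE 0.96, adjusted p = 0.00247), these included the Nodal coreceptor gene Cfc1, at 6.00, 6.70 and 4.15 CPM in KI and 2.86, 0.693 and 0.978 CPM in control embryos (1.91, SE 0.52, adjusted p = 0.0394). Lefty2 was close to 0 in all controls, while Cfc1 was low but present in them. In the left-right list the calls became 5 higher with the block, in a fit of the 6 E8.5 libraries or in a fit of the 6 E8.5 libraries with the block. The left-right list had a median of 0.18 with a stricter filter on low counts, 0.49 without KI 1.

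Nodal itself was low, at 1.08, 0.802 and 1.72 CPM in KI and 0, 0.308 and 0.489 CPM in control embryos, and was not called (2.14, adjusted p = 0.156), although every KI embryo exceeded every control. Lefty1, of the midline, was at 1.67, 1.04 and 0.632 CPM in KI and 0.200, 0 and 0.196 CPM in control embryos, without a call (3.11, adjusted p = 0.0607). With the block, Lefty1 (adjusted p = 0.0206, range over the alternatives 0.0206 to 0.187) and Foxh1, the transcription factor of the pathway (1.06, adjusted p = 0.143 without and 0.0314 with the block, range 0.000126 to 0.36), were called as well. Lefty1 and Lefty2 are similar in sequence, so reads could have been shared between them. Cer1, another Nodal antagonist, was at 0.180, 0.472 and 1.13 CPM in KI and 4.21, 0.731 and 1.76 CPM in control embryos with overlapping groups (adjusted p = 0.151). Cfc1 (any but control 1) lost the call when the library in brackets was left out. Over the alternatives Cfc1 reached adjusted p-values of at most 0.172. Cfc1 with transcripts summed per gene lost the call as well.

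Of 13 transcription factors of the heart, 5 rose and 0 fell, against 3.63% and 1.83% of all genes. All 13 had a log2 fold change above 0 in the fit, against 7409 of 15436 genes, and their median was 0.59. In pairs 1, 2 and 3, 13, 12 and 12 of them were above 0, with median log2 ratios of 0.71, 0.28 and 0.43. Hand1, of left ventricle, lateral plate and extraembryonic mesoderm, was at 191, 187 and 238 CPM in KI and 77.8, 91.3 and 77.3 CPM in control embryos (log2 fold change 1.32, SE 0.30, adjusted p = 0.0443). Tbx20, a T-box factor of the myocardium, was at 57.0, 38.4 and 50.9 CPM in KI and 24.5, 24.1 and 18.96 CPM in control embryos (1.11, SE 0.17, adjusted p = 0.00162). Gata6 was at 75.3, 68.1 and 86.9 CPM in KI and 49.7, 54.1 and 48.6 CPM in control embryos, Tbx5 at 0.59 and Gata5 at 0.39. Gata4 (0.66, adjusted p = 0.0769) and Nkx2-5 (0.55, adjusted p = 0.101 without and 0.0283 with the block, range over the alternatives 0.00501 to 0.311) were not called. In the cardiac factor list the calls became 8 higher with DESeq2, 2 higher without KI 1, control 1 or control 3, 3 higher without KI 2. The cardiac factor list had a median of 0.39 without KI 1. Hand1 (any of the 6), Tbx5 (KI 1, control 1 or control 3) and Gata5 (any but control 2) lost the call when the library in brackets was left out. Over the alternatives Hand1, Tbx5 and Gata5 reached adjusted p-values of at most 0.156, 0.0775 and 0.139, in that order.

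Of 18 sarcomere and chamber genes, 0 were called in the fit of 12 libraries, with or without the block, and 4 had an unadjusted p under 0.05, with a median of 0.44. The fit of the 6 E8.5 libraries called 1 higher, the same fit with the block 2, and DESeq2 2. Their sum was 2869, 2161 and 1936 CPM in KI and 1417, 2047 and 1363 CPM in control embryos, so control 2 reached into the range of the KI embryos. Without control 2, 3 members were called higher and the median was 0.74. Without KI 1 the median was 0.25 and 0 were called, and without control 1 the median was 0.29. Myh6, the atrial myosin heavy chain, was at 449, 404 and 322 CPM in KI and 239.5, 313 and 222 CPM in control embryos (adjusted p = 0.282), and Myh7 had 1.09 (adjusted p = 0.143), Ttn (titin) -0.27 (adjusted p = 0.662) and Actc1, the cardiac actin, 0.36 (adjusted p = 0.697). The atrial peptide gene Nppa ran from 2.21 to 2.71 CPM in KI and from 0.652 to 7.89 CPM in control embryos.

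The allantois is the extraembryonic mesoderm that forms the umbilical vessels. Of 14 genes of it and of lateral plate mesoderm, 5 rose and 0 fell (median 0.59), against 3.63% and 1.83% of all genes. The 5 were Hand1, Bmp4 (log2 fold change 0.96, SE 0.12, adjusted p = 0.000196), Pitx1 (1.23, SE 0.24, adjusted p = 0.0237), Isl1 and Foxf1 (0.69, SE 0.11, adjusted p = 0.000556). Tbx4, a T-box gene of the allantois, was at 72.9, 66.9 and 73.2 CPM in KI and 10.8, 51.9 and 16.1 CPM in control embryos and was not called (1.42, adjusted p = 0.167), and control 2 stood apart from the other controls. Vcam1, by which the allantois attaches to the chorion, was at 17.5, 7.97 and 14.6 CPM in KI and 2.21, 6.54 and 1.66 CPM in control embryos (1.92, adjusted p = 0.0585). Plac1, a gene of placental trophoblast, was at 27.7, 19.3 and 28.6 CPM in KI and 2.91, 11.6 and 2.98 CPM in control embryos (2.09, adjusted p = 0.055). For all 3, control 2 was the highest control and still below the lowest KI embryo. Without control 2 all 3 were called, and over the alternatives the adjusted p ran from 1.77e-05 to 0.386 for Tbx4, from 0.000404 to 0.357 for Vcam1 and from 5.51e-06 to 0.308 for Plac1. Of 16 trophoblast markers 8 were tested, and their sum was 377, 362 and 393 CPM in KI and 221, 213 and 177 CPM in control embryos. Without Hand1 the other 7 summed to 186, 175 and 155 CPM in KI and 143, 122 and 100.0 CPM in control embryos. Of the 8 untested markers, Tpbpa and Prl3d1 were at 0 in all 6 libraries, and Gcm1, Prl2c2, Psg17, Rhox6, Rhox9 and Syna had 0 to 11 reads a library. How much attached extraembryonic tissue each embryo held was not tested. In the lateral plate list the calls became 3 higher without KI 3 or control 3. Pitx1 (KI 2, KI 3 or control 3) lost the call when the library in brackets was left out. Over the alternatives Pitx1 reached adjusted p-values of at most 0.108. Pitx1 in a fit of the 6 E8.5 libraries and Pitx1 in a fit of the 6 E8.5 libraries with the block lost the call as well.

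Of 14 further genes of the BMP pathway, 4 rose and 0 fell, against 3.63% higher and 1.83% lower among all genes. Smad6, an inhibitor induced by BMP signalling, was at 76.7, 79.8 and 89.3 CPM in KI and 45.7, 57.7 and 41.6 CPM in control embryos (log2 fold change 0.76, SE 0.10, adjusted p = 0.000177). Its relative Smad7 was at 0.60, the extracellular modulator gene Bmper at 0.83 and the ligand gene Gdf6 at 0.78. In the BMP list the calls became 4 higher and 1 lower with DESeq2, 3 higher and 1 lower in a fit of the 6 E8.5 libraries, 5 higher and 1 lower in a fit of the 6 E8.5 libraries with the block, 2 higher without control 2, 1 higher without KI 3. The target genes Id1 (0.22, adjusted p = 0.126) and Id3 (0.18, adjusted p = 0.145) were not called. Of 20 Wnt genes, 2 rose and 4 fell, against 3.63% and 1.83% of all genes. Wnt11, a ligand of the non-canonical branch, was at 14.4, 12.4 and 15.1 CPM in KI and 5.56, 6.20 and 6.01 CPM in control embryos (1.24, SE 0.18, adjusted p = 0.000277) and Wnt5a at 0.35. Wnt7b, a ligand of neural and surface epithelia, was at 8.12, 5.28 and 7.32 CPM in KI and 11.1, 15.3 and 13.7 CPM in control embryos (-0.95, SE 0.16, adjusted p = 0.00158), Wnt7a at -0.80, and the feedback inhibitor genes Notum at -1.08 and Nkd1 at -0.40. In the Wnt list the calls became 3 higher and 7 lower in a fit of the 6 E8.5 libraries with the block. Smad7 (KI 3), Bmper (KI 1, control 2 or KI 3), Gdf6 (KI 2, control 2, KI 3 or control 3) and Wnt7a (any but control 2) lost the call when the library in brackets was left out. Over the alternatives Smad7, Bmper, Gdf6 and Wnt7a reached adjusted p-values of at most 0.0572, 0.0662, 0.151 and 0.182, in that order. Gdf6 and Wnt7a in a fit of the 6 E8.5 libraries lost the call as well.

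Of 18 endothelial genes, 8 rose and 0 fell, against 3.63% and 1.83% of all genes. All 18 were above 0 in the fit, against 7409 of 15436 genes, and the median of the list was 0.48. Within pairs 1, 2 and 3, 18, 12 and 18 of the 18 were above 0, with median log2 ratios of 0.45, 0.17 and 0.83, so pair 2 had 6 genes below 0. Pecam1 (CD31), an adhesion protein of vessel walls, was at 31.3, 25.9 and 42.9 CPM in KI and 13.0, 19.6 and 14.2 CPM in control embryos (log2 fold change 1.09, SE 0.17, adjusted p = 0.0016). Cldn5, a tight junction protein of endothelium, was at 48.3, 41.1 and 58.5 CPM in KI and 14.2, 30.5 and 21.9 CPM in control embryos (1.14, SE 0.23, adjusted p = 0.0192). Sox18 (0.91), Sox17 (0.90), Esam (0.69), the VE-cadherin gene Cdh5 (0.64), the Notch ligand gene Dll4 (0.63) and the VEGF receptor gene Kdr (0.39) were the others. In each of the 8 genes the KI embryos lay above the controls. Etv2, the factor that starts the endothelial lineage, was not called (0.20, adjusted p = 0.633). In the endothelial list the calls became 4 higher in a fit of the 6 E8.5 libraries or in a fit of the 6 E8.5 libraries with the block or without KI 3 or control 3. The endothelial list had a median of 0.32 without KI 3. Cldn5 (KI 1, KI 3 or control 3), Esam (KI 3), Cdh5 (control 1 or control 3), Dll4 (any but KI 1) and Kdr (KI 3 or control 3) lost the call when the library in brackets was left out. Over the alternatives Cldn5, Esam, Cdh5, Dll4 and Kdr reached adjusted p-values of at most 0.209, 0.0834, 0.145, 0.199 and 0.132, in that order. Pecam1, Cldn5, Cdh5 and Kdr in a fit of the 6 E8.5 libraries with the block, Cldn5, Esam, Cdh5 and Dll4 in a fit of the 6 E8.5 libraries and Dll4 with transcripts summed per gene lost the call as well (highest adjusted p for Pecam1 0.0876). Among log2 fold changes, that of Cdh5 was 0.42 without KI 3.

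Primitive red blood cells, which arise in the yolk sac and enter the embryo as its circulation starts, gave the median farthest from 0 among the pathway lists. All 18 tested genes had a log2 fold change below 0 in the fit, against 8023 of 15436 genes, and 1 of the 18 was called. In 16 of the 18 every KI embryo lay below every control, against 12.7% of all genes. Their sum was 318, 474 and 447 CPM in KI and 1237, 2446 and 2578 CPM in control embryos, and the median log2 fold change was -2.48. Hba-x, the embryonic alpha-like globin, was at 74.1, 51.2 and 93.7 CPM in KI and 352, 584 and 693 CPM in control embryos. Alas2, the enzyme that starts haem synthesis in red cells, was at 1.80, 3.11 and 3.48 CPM in KI and 10.3, 17.0 and 18.5 CPM in control embryos. Klf1, their master factor, was at 1.22, 1.13 and 1.63 CPM in KI and 4.61, 7.93 and 7.14 CPM in control embryos. Per transcript length, the median RPKM of Hba-x was 95.6 in KI and 723 in control embryos, and that of Alas2 1.18 and 6.38.

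The calls in this list depended on the fit. With the spread shared over all 12 embryo libraries, 1 of 18 was called lower, Hemgn (log2 fold change -6.02, SE 1.42, adjusted p = 0.0485), against 1.83% of all genes. In the E9.5 libraries of this fit the sum of the list ran from 1240 to 6090 CPM in KI and from 6300 to 16700 CPM in control embryos. The part of this spread in the calls was not tested. Adding the pair as a block called 16 lower, against 3.49% of all genes, a fit of the 6 E8.5 libraries alone called 12, and DESeq2 called 10. With 1 E8.5 library left out, 0 were called, whichever of the 6 it was, while the median stayed between -2.70 and -2.31. For Alas2 the adjusted p was 0.105 without and 1.09e-07 with the block (range over the alternatives 1.09e-07 to 0.244), for Klf1 0.156 and 4.96e-05 (range 4.96e-05 to 0.307), and for Hba-x 0.0667 and 0.00683 (range 0.00161 to 0.176). The 2 genes not called with the block were Tal1 (-0.23) and Lmo2 (-0.20), which blood and vessel precursors share. Hba-a1 and Hba-a2 carry identical counts, and globin copies of a cluster are similar, so their single values are uncertain.

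The values of 7 other genes of the list, none of them called in the fit of 12 libraries without the block, follow. Among regulators, Gata1, the factor that drives the lineage, was at 1.89, 0.472 and 1.40 CPM in KI and 3.66, 6.66 and 8.26 CPM in control embryos. Nfe2, which activates globin genes, was at 1.40, 0.802 and 1.49 CPM in KI and 3.06, 3.85 and 6.599 CPM in control embryos. Epor, the receptor for erythropoietin, was at 3.52, 3.87 and 5.28 CPM in KI and 5.31, 8.04 and 7.28 CPM in control embryos. Among membrane genes, Slc4a1, the anion exchanger band 3, was at 3.79, 2.36 and 3.93 CPM in KI and 26.4, 50.1 and 58.1 CPM in control embryos, and Epb42 at 0.0902, 0.0943 and 0 CPM in KI and 1.50, 1.96 and 2.83 CPM in control embryos. Among globins, Hbb-y was at 20.4, 11.5 and 31.7 CPM in KI and 56.5, 155 and 221 CPM in control embryos. Hbb-bh1 was at 81.5, 52.2 and 90.1 CPM in KI and 295, 445 and 557 CPM in control embryos. In each of these 7 genes the highest KI embryo was below the lowest control, and control 1 was the lowest control. Their adjusted p was 0.187, 0.148, 0.626, 0.072, 0.0784, 0.124 and 0.0886 without and 0.00239, 0.000471, 0.0192, 0.0074, 0.000137, 0.0363 and 0.00829 with the block, in the order of naming, and the highest over the alternatives were 0.381, 0.352, 0.762, 0.196, 0.233, 0.297 and 0.222. Gfi1b (-2.50), a repressor of the lineage, and the membrane gene Ermap (-3.68) had the same order of groups.

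**Figure D3:**
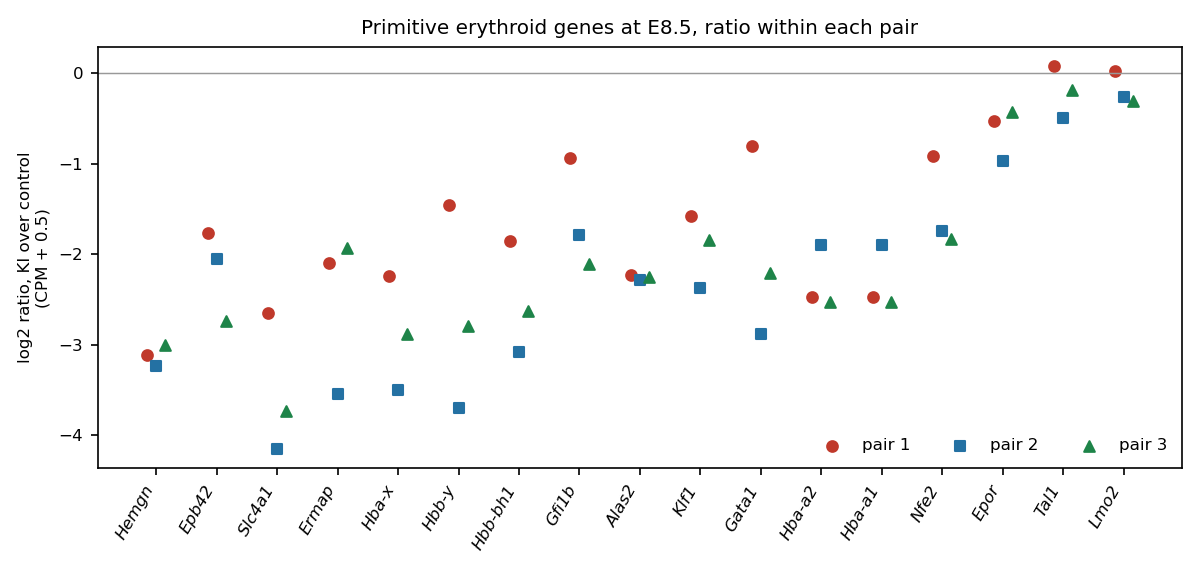
Log2 ratio of KI over control within each pair (y axis, 0.5 CPM added) for 17 of the 18 primitive erythroid genes (x axis). Apart from Tal1 and Lmo2 in pair 1, every point lies below 0, with medians over the 18 of -1.81, -2.33 and -2.34 in pairs 1, 2 and 3.

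Erythroid genes are known for promoters and enhancers bound by GATA1 and KLF1. The 250 bases before the annotated start were taken from RefSeq (GRCm38.p6) for 13 of the 18 genes (14 promoters). Searched on both strands, GATAA was in 12 of the 14 (85.7%) and in 22.6% of 32851 mouse promoters, and CCACCC in 8 (57.1%) and in 28.1%. The promoters of Hba-a1 and Hba-a2 are nearly the same sequence, carry both motifs and are both counted. A match is a description of these letters and not a bound site. The promoters of 3 genes of this list follow, those of Hemgn, with the strongest fall, and of Hba-x and Alas2, whose levels are given above, 5′ to 3′ on the strand of the gene and with the matches in capitals.
Hemgn, chr4:46404184-46404433 (- strand): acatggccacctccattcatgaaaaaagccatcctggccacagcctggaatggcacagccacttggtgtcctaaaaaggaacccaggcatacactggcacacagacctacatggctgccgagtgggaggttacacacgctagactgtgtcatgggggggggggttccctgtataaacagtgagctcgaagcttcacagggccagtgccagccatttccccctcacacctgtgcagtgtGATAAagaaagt
Hba-x, chr11:32276350-32276599 (+ strand): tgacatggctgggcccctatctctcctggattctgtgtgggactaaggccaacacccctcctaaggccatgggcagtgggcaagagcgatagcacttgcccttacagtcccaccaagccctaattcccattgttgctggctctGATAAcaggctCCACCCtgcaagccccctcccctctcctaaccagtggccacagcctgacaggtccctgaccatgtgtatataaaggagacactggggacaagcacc
Alas2, chrX:150547167-150547416 (+ strand): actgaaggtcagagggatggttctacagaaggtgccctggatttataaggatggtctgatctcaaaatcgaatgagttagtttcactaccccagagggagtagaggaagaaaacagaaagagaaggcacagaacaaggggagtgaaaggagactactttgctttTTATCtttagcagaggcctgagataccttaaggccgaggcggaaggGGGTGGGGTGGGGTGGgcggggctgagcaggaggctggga
The Hemgn promoter held 1 GATAA, 12 to 8 bases before its start. Hba-x held GATAA at 107 to 103 and CCACCC at 96 to 91 bases before the start. Alas2 held 1 GATAA on the opposite strand and 3 overlapping copies of CCACCC on that strand.

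Hox genes set position along the body axis, with higher paralog numbers toward the tail. Of 38 tested, 7 rose and 0 fell (median 0.17), against 3.63% higher and 1.83% lower among all genes. Of the 7, 5 belong to paralog groups 10 to 13, which held 11 of the 38. Hoxa13 was at 6.27, 4.95 and 6.86 CPM in KI and 1.35, 1.54 and 0.147 CPM in control embryos (log2 fold change 2.55, SE 0.46, adjusted p = 0.00261). Hoxa11 was at 17.6, 12.5 and 15.6 CPM in KI and 1.85, 7.16 and 4.06 CPM in control embryos (1.78, SE 0.36, adjusted p = 0.0178). Hoxa10 was at 16.5, 16.9 and 20.5 CPM in KI and 3.61, 10.1 and 6.31 CPM in control embryos (1.41, SE 0.31, adjusted p = 0.0254). Hoxc11, at 1.31, 1.41 and 1.31 CPM in KI and 0.200, 0.269 and 0.0978 CPM in control embryos (2.76, SE 0.51, adjusted p = 0.00247), lies in the HoxC cluster. Hoxd11, of the HoxD cluster, was at 2.08, 3.25 and 2.57 CPM in KI and 0.501, 1.19 and 0.684 CPM in control embryos (1.69, SE 0.40, adjusted p = 0.0241). The KI embryos lay above the controls in all 7, which also include Hoxd9 (0.54) and Hoxb6 (0.39). All of the 7 but Hoxc11 lost the call under some alternatives, which are given below. In the Hox list the calls became 4 higher without KI 1 or control 1, 3 higher without KI 2, 2 higher without KI 3 or control 3. The Hox list had a median of 0.07 without KI 2, 0.11 without control 3.

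**Figure D4:**
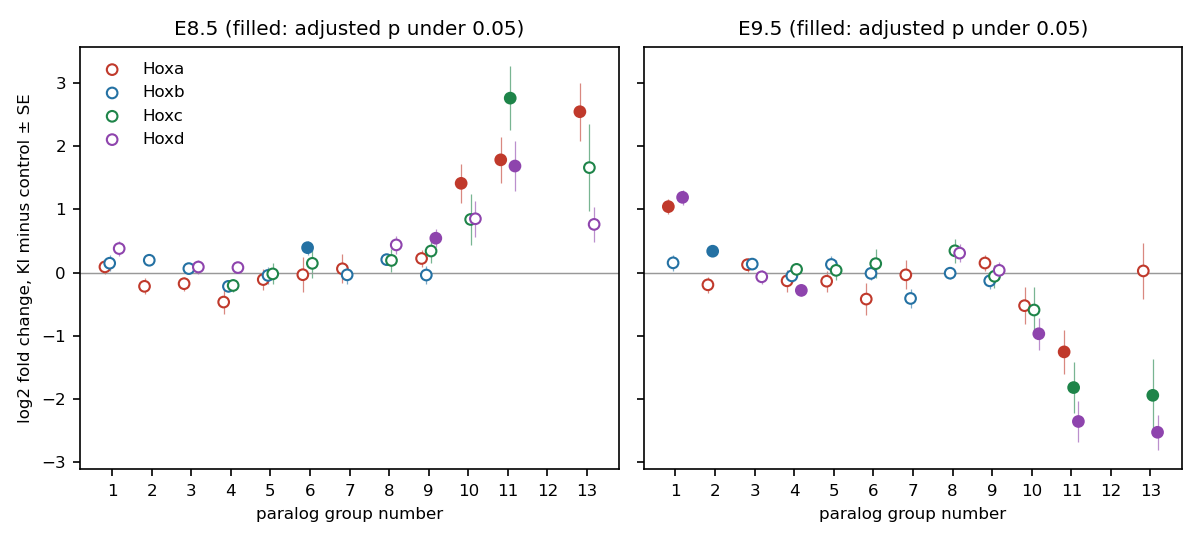
Log2 fold change (y axis, KI minus control, bars are SE) of the Hox genes by paralog group number (x axis) at E8.5 and E9.5, coloured by cluster and filled where the adjusted p was under 0.05. Groups 10 to 13 lie above 0 at E8.5 (Hoxa13 at 2.55, Hoxc11 at 2.76) and, apart from Hoxa13, below 0 at E9.5 (Hoxc11 at -1.82); Hoxc12 and Hoxd12, with almost no reads in 1 or more groups, are not drawn.

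At E9.5 the same posterior genes had other values: Hoxc11 was at -1.82, Hoxd11 at -2.36, Hoxa11 at -1.26 and Hoxa13 at 0.03. The change of the KI effect between the stages was called for each of the 4, with differences (E9.5 effect minus E8.5 effect) of -4.58 (adjusted p = 0.000275), -4.04 (adjusted p = 0.000299), -3.04 (adjusted p = 0.00553) and -2.52 (adjusted p = 0.0238). Hoxd13 (0.76) and Hoxc13 (1.66) were not called at E8.5. Tbx4 and Vcam1, genes of the allantois, were also highest in the KI embryos at E8.5, and their part in the Hox values was not tested. Strand use in the counting is not given, so antisense transcripts of the Hox clusters cannot be told apart from the genes. Hoxa10 (KI 1, KI 2, KI 3 or control 3), Hoxa11 (KI 1, KI 3 or control 3), Hoxb6 (any of the 6), Hoxd9 (any but KI 1) and Hoxd11 (control 1, KI 2, KI 3 or control 3) lost the call when the library in brackets was left out. Over the alternatives Hoxa10, Hoxa11, Hoxb6, Hoxd9 and Hoxd11 reached adjusted p-values of at most 0.114, 0.192, 0.199, 0.144 and 0.122, in that order. Hoxa10 and Hoxa11 in a fit of the 6 E8.5 libraries, Hoxa11 and Hoxa13 in a fit of the 6 E8.5 libraries with the block and Hoxb6 with transcripts summed per gene lost the call as well (highest adjusted p for Hoxa13 0.0664).

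Imprinted genes, expressed from 1 parental copy, numbered 16, of which 5 rose and 1 fell, against 3.63% and 1.83% of all genes. Cdkn1c, which inhibits cyclin-dependent kinases, was at 820.0, 627 and 672 CPM in KI and 179, 345 and 185 CPM in control embryos (log2 fold change 1.58, SE 0.25, adjusted p = 0.00999). Phlda2, which limits placental growth and lies in the same imprinted cluster, was at 123, 109 and 102 CPM in KI and 39.6, 69.7 and 36.4 CPM in control embryos (1.20, SE 0.25, adjusted p = 0.0307). Peg3 (0.49, SE 0.07, adjusted p = 0.000322), Peg10 and Mest were the other 3 and Nnat fell (-0.39, with overlapping groups). Control 2 was the highest control for Cdkn1c, as for Tbx4 and Plac1. The sum of the 8 tested trophoblast markers given above was also higher in KI. It includes Hand1, Cdx2 and Tfap2c, which also stand in the cardiac, presomitic and germ cell lists. The markers with few or no reads are not in it. The part of trophoblast in these values was not tested. In the imprinted list the calls became 5 higher and 0 lower without the filter on low counts, 3 higher and 0 lower in a fit of the 6 E8.5 libraries or without KI 1 or control 3, 3 higher and 1 lower in a fit of the 6 E8.5 libraries with the block or without control 1 or KI 3, 4 higher and 0 lower without KI 2, 6 higher and 0 lower without control 2. Phlda2 (any but control 2) and Nnat (KI 1, KI 2, control 2 or control 3) lost the call when the library in brackets was left out. Over the alternatives Phlda2 and Nnat reached adjusted p-values of at most 0.162 and 0.153, in that order. Cdkn1c, Phlda2 and Nnat in a fit of the 6 E8.5 libraries, Cdkn1c and Phlda2 in a fit of the 6 E8.5 libraries with the block and Nnat without the filter on low counts lost the call as well (highest adjusted p for Cdkn1c 0.194).

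Of 20 hypoxia and glycolysis genes, 2 were called higher, against 3.63% of all genes, Egln3 at 28.8, 39.5 and 32.6 CPM in KI and 12.7, 23.1 and 19.3 CPM in control embryos (log2 fold change 0.86, SE 0.17, adjusted p = 0.00856) and Vegfa (0.32, SE 0.08, adjusted p = 0.0254), with a median of 0.16. Slc2a1, the glucose transporter, was at -0.09 (adjusted p = 0.585). Of 13 targets of the integrated stress response, 2 were called higher and 1 lower. Chac1, which degrades glutathione, was at 1.40, 2.45 and 2.03 CPM in KI and 0.601, 1.15 and 0.978 CPM in control embryos (1.08, SE 0.28, adjusted p = 0.0305). The cystine transporter gene Slc7a11 was at 0.35 and Psat1 at -0.27. Of 12 p53 target genes edgeR called 0 and DESeq2 3, 4 had an unadjusted p under 0.05, and the block called 2 higher and 1 lower. In the hypoxia list the calls became 1 higher in a fit of the 6 E8.5 libraries or without control 1, KI 2, KI 3 or control 3, 4 higher in a fit of the 6 E8.5 libraries with the block or without control 2. The hypoxia list had a median of 0.02 without control 1, 0.26 without control 2. In the stress response list the calls became 0 higher and 1 lower in a fit of the 6 E8.5 libraries or without control 1 or KI 2, 1 higher and 1 lower without KI 1, 0 calls without KI 3 or control 3. In the p53 list the calls became 1 higher without the filter on low counts or without KI 2, 1 higher and 2 lower in a fit of the 6 E8.5 libraries, 2 higher and 2 lower in a fit of the 6 E8.5 libraries with the block. Vegfa and Chac1 (control 1, KI 2, KI 3 or control 3), Slc7a11 (any of the 6) and Psat1 (KI 1, KI 3 or control 3) lost the call when the library in brackets was left out. Over the alternatives Vegfa, Chac1, Slc7a11 and Psat1 reached adjusted p-values of at most 0.143, 0.151, 0.162 and 0.0871, in that order. Egln3, Chac1 and Slc7a11 in a fit of the 6 E8.5 libraries and Chac1 in a fit of the 6 E8.5 libraries with the block lost the call as well (highest adjusted p for Egln3 0.0577).

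Among markers of other cell types, 3 of 13 gut endoderm genes rose: the epithelial adhesion gene Epcam (0.45), the gut peptide gene Pyy, at 4.96, 3.40 and 3.75 CPM in KI and 1.05, 0.693 and 0.831 CPM in control embryos (log2 fold change 2.23, SE 0.59, adjusted p = 0.0363), and Sox17, which endothelium also expresses. Tfap2c (0.55) and Hand1 were called among 8 tested trophoblast genes, and Tfap2c and Kit (0.48) among 5 germ cell genes. Of 18 visceral and yolk sac endoderm genes, 0 were called in the fit of 12 libraries, with or without the block, and by DESeq2, 4 were called lower in the fit of the 6 E8.5 libraries with the block, and 1 had an unadjusted p under 0.05. Their median was -0.59 and 16 of 18 were below 0, against 8023 of 15436 genes. Within pairs 1, 2 and 3 the medians of the 18 were -0.37, -0.97 and -0.89. The visceral endoderm list had a median of -1.79 without KI 1, 0.17 without control 1, -0.18 without KI 2, -1.07 without control 2, -0.33 without KI 3. Their part in the erythroid values was not tested. The lists of node and notochord (0 of 10, 1 at an unadjusted p under 0.05), Hedgehog (1 of 13, Foxf1), pluripotency (0 of 8, 2 at an unadjusted p under 0.05), decidua (1 of 8, Hand2) and leukocyte genes (0 of 5, 1 at an unadjusted p under 0.05) held the calls given in brackets. DESeq2 called 0 node and notochord genes, 1 pluripotency gene and 0 leukocyte genes. In the pluripotency list the calls became 1 lower with the block or without KI 3. The Hedgehog list had 1 higher and 1 lower without control 1, and the decidua list 2 higher without control 2. In the gut endoderm list the calls became 5 higher with the block or in a fit of the 6 E8.5 libraries, 1 higher with transcripts summed per gene or without KI 1, KI 2, KI 3 or control 3, 7 higher in a fit of the 6 E8.5 libraries with the block. In the trophoblast list the calls became 0 calls without KI 1, control 1, KI 2 or control 3, 1 higher without control 2 or KI 3. In the germ cell list the calls became 2 higher and 1 lower with DESeq2, with the block or in a fit of the 6 E8.5 libraries with the block, 1 higher with transcripts summed per gene or without KI 1, control 1, KI 2, control 2 or control 3. Epcam (any but control 1), Pyy (any of the 6) and Tfap2c (any but KI 3) lost the call when the library in brackets was left out. Over the alternatives Epcam, Pyy and Tfap2c reached adjusted p-values of at most 0.158, 0.142 and 0.162, in that order. Epcam, Pyy and Tfap2c with transcripts summed per gene lost the call as well.

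The KI effect at E8.5 was set against that at E9.5, which rests on other libraries. At E9.5, 4560 genes (29.5%) were called, 14.6% of all genes higher and 14.9% lower. Of the 560 genes higher at E8.5, 331 were called higher at E9.5 and 15 lower. Of the 283 lower genes, 163 were called lower at E9.5 and 11 higher. The sclerotome genes Pax1 (-2.74 at E8.5 and -3.48 at E9.5) and Uncx (-2.32 and -2.91) were called lower at both stages, as were Aldh1a2 (-1.24 and -1.21) and Dbx1 (-2.45 and -3.14). Tbx20 (1.11 and 1.40), Snai2 (1.24 and 1.06) and Rgs5 (2.29 and 1.70) were higher at both.

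**Figure D5:**
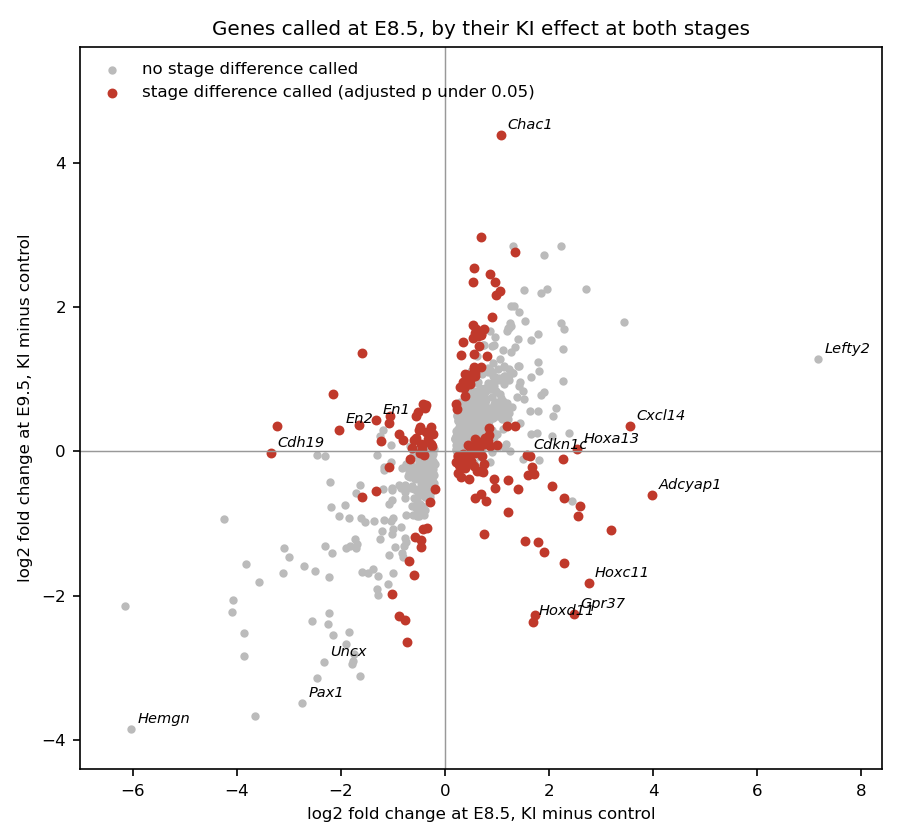
Log2 fold change (KI minus control) at E8.5 (x axis) against E9.5 (y axis) for the 843 genes called at E8.5, in red where the change between the stages was itself called. Pax1 and Uncx lie low on both axes, Hoxc11 and Gpr37 lie right of 0 and below 0, and Chac1 lies at 1.08 and 4.38.

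A test of the difference between the stages called 1024 genes (6.63%). Among the 560 genes higher at E8.5 the difference was called positive for 39 and negative for 78, and among the 283 lower genes positive for 37 and negative for 13. These genes were chosen on the E8.5 effect that the difference contains, so nothing is read from these splits. En1 (-1.32 at E8.5 and 0.43 at E9.5) and En2 (-2.03 and 0.30) were called lower at E8.5 and not at E9.5, and their differences were called (adjusted p = 2.24e-05 and 0.000892). Among neuronal genes, Tubb3, a neuronal tubulin, had 0.19 at E8.5 and -2.40 at E9.5 (difference -2.59, adjusted p = 7.45e-06), and Stmn2 0.12 and -1.66 (difference -1.78, adjusted p = 0.000457). In the proneural and neuron list 4 of 15 were called lower at E8.5 and 12 at E9.5, and the difference was called in 5. Hypoxia and glycolysis genes went from 2 called higher of 20 to 20 of 20, with medians of 0.16 and 1.35, and the difference was called in 18 of them. Integrated stress response targets went from 2 of 13 called higher to 11, with the difference called in 6. Cardiac transcription factors had medians of 0.59 and 0.98 with 5 and 11 of 13 called higher, and erythroid genes -2.48 and -1.91 with 1 and 3 of 18 called lower.

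Of genes called both at E8.5 and in the difference between the stages, the 5 with the largest rise at E8.5 were Adcyap1, a neuropeptide gene, at 0.406, 0.0943 and 1.17 CPM in KI and 0, 0 and 0.0978 CPM in control embryos (3.98 at E8.5 and -0.60 at E9.5), the antisense transcript Dlx6os1 (3.19 and -1.08), Fam83f (2.60 and -0.75), Cxcl14 (3.57 and 0.35) and Hoxc11, whose effect was lower at E9.5. The 5 with the largest fall at E8.5 were Cdh19 (-3.34 and -0.03), Angpt4, an angiopoietin gene (-3.22 and 0.34), Klhl30 (-2.15 and 0.79), En2 and Upk1b, a uroplakin gene (-1.65 and 0.37), whose effect was higher at E9.5. The 3 E8.5 controls held 2 reads each of Adcyap1 and Dlx6os1 in all. Adcyap1 (any but KI 2), Dlx6os1 (any but control 3), Fam83f (any but control 2), Angpt4 (KI 1 or KI 3), Klhl30 (any of the 6) and Upk1b (KI 1, KI 2 or control 3) lost the call when the library in brackets was left out. Over the alternatives Adcyap1, Dlx6os1, Fam83f, Angpt4, Klhl30 and Upk1b reached adjusted p-values of at most 0.263, 0.153, 0.156, 0.0691, 0.153 and 0.196, in that order. Adcyap1, Dlx6os1, Fam83f and Klhl30 with transcripts summed per gene, Dlx6os1 with DESeq2's size factors as scaling in edgeR, Dlx6os1 with the block, Upk1b in a fit of the 6 E8.5 libraries and Upk1b in a fit of the 6 E8.5 libraries with the block lost the call as well. Among log2 fold changes, that of Adcyap1 was 6.74 without control 3, that of Dlx6os1 was 5.95 without control 3 and that of Fam83f was 3.98 without control 2. Sexes were not balanced at E9.5, where Xist was at 1139, 1437 and 1392 CPM in KI and 991, 0.288 and 1014 CPM in control embryos, and the part of this in the stage differences was not tested.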

How the data were processed

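Bulk poly(A) RNA sequencing of 6 whole embryos at E8.5 (3 KI, 3 control) was analysed, with 6 at E9.5 in the same fit. The authors deposited 1 table per library with the raw read count and the RPKM value of each of 29082 RefSeq transcripts, per the file headers. RPKM values (reads per length and depth, as deposited by the authors) were used only for levels per transcript length. The submitters' processing notes name bcl2fastq, Bowtie2, STAR, SICER 1.1 and mm9 without a role. The counting tool and its use of strand are not given in the sources used here. Accessions were matched to symbols (28436 matched, 646 not), and the transcript with most reads over all 37 RNA libraries was kept per gene. Promoter sequences are from RefSeq on GRCm38.p6, matched by symbol, which is not the build of the files.

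Counts of 12 embryo libraries were fitted by group in edgeR 4.0.16 (R 4.3.3; filterByExpr with a minimum count of 10, TMM scaling, robust quasi-likelihood test), with Benjamini-Hochberg adjustment over 15436 genes and a threshold of 0.05. The biological coefficient of variation was 0.133, and 0.102 with the block. Replicates within a group differed by more than sampling noise (chi-square per degree of freedom 9.42 to 17.39). Deviations from the group means correlated between the embryos of 1 title number at 0.29, 0.33 and 0.13, so the number was taken to pair them; the labels do not say what it marks. Alternatives were DESeq2 1.42.0, other scaling and filters, a block on the title number, transcripts summed per gene, the 6 E8.5 libraries alone and each library left out. For calls at E8.5 only E8.5 libraries were left out. Named genes were those with the 15 largest rises and falls among called, at least 2-fold changed genes of at least 1 CPM with non-overlapping groups, list members, the targeted genes, the most abundant called genes and, of genes called at E8.5 and in the stage difference, the 5 with the largest rise and the 5 with the largest fall at E8.5. Members and gene lists were chosen with earlier results of these data known. Intervals of read ratios are exact conditional binomial intervals (Clopper-Pearson) and cover counting error only. A few members of the lists are counted but not reported here.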

Additional observations from a re-analysis of the deposited data

Results flagged for a closer look

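The KI effect differed between E9.5 and E8.5 by the interaction test of edgeR in 1024 genes. Values below are the difference of log2 fold changes, E9.5 effect minus E8.5 effect, for genes that were called at E8.5 and are named in the text. Among genes higher in KI at E8.5, the effect was smaller or opposite at E9.5 for Cxcl14 (-3.22), Hoxc11 (-4.58), Amer3 (-3.44), Hoxa13 (-2.52), Gpr37 (-4.74), Adgra1 (-3.84), Pmepa1 (-2.93), Robo3 (-2.37), Adcyap1 (-4.59), Dlx6os1 (-4.27), Fam83f (-3.35), Isl1 (-0.79), Hoxa10 (-1.94), Hoxa11 (-3.04), Hoxd11 (-4.04) and Cdkn1c (-1.64). It was larger at E9.5 for Msx2 (0.46), Gata6 (1.10), Gata5 (0.51), Foxf1 (0.94), Chac1 (3.30), Egln3 (1.59), Vegfa (1.01) and Kit (0.45).

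Among genes lower in KI at E8.5, the fall was weaker, absent or opposite at E9.5 for Cdh19 (3.31), Angpt4 (3.57), Klhl30 (2.94), En2 (2.33), Upk1b (2.01), En1 (1.75), Wnt1 (0.74), Notum (1.47) and Psat1 (0.61). The fall was deeper at E9.5 for Lfng (-0.77), Dll1 (-0.65), Olig2 (-1.58) and Nes (-0.86). Of the genes named here, Adcyap1, Dlx6os1 and Fam83f had 2, 2 and 5 reads in the 3 E8.5 controls together. The calls of Gpr37 and Dlx6os1 at E8.5 were lost with the block. These genes were called on the E8.5 effect that the difference contains. No test for an outlying sample was run, since each group holds 3 embryos.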

How the results depend on the processing

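The count of 843 genes called at E8.5 became 1304 with a replicate block on the title number, 1350 in a fit of the 6 E8.5 libraries with that block, and 214 with a minimum of 2-fold. It ran from 363 to 755 when 1 E8.5 library was left out. DESeq2 called 1227, of which 842 were among the 843, the other scaling 829 (820 shared), no filter 851 (781 shared), a stricter filter 863 (832 shared), summed transcripts 747 (698 shared) and the 6 E8.5 libraries alone 848 (680 shared). For the stage difference, 1024 calls became 1547 with the replicate block and 607 (without 1 E9.5 KI embryo) to 1175 with 1 library left out. Of the 186 genes followed, 121 were called. The block ended the calls of Gpr37, Padi2, Dlx6os1 and Eya1 and added 18, of which 14 are erythroid and the others are Zic1, Lefty1, Foxh1 and Nkx2-5; it changed no other call among them. DESeq2 ended 1 and added 15. With 1 library left out, 5 genes that were not called changed sign, the log2 fold change running from -0.069 to 0.03 for Kmt2c, from -0.13 to 0.22 for T, from -0.33 to 0.25 for Shh, from -0.99 to 1.14 for Nppa and from -1.96 to 1.11 for Apob. Nppa was at 0.081 in the fit of the 6 E8.5 libraries with the block. List medians moved by more than their SD over the pairs in 39 of 476 cases. The cause of these changes was not tested. At 3 reads a library a gene lies at 0.115 to 0.15 CPM.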
